A study of Mus musculus with 11 samples.

Results

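Neural progenitors sorted for Prominin-1 at day 3.5 of differentiation were compared with the unsorted culture at day 3. The 3 sorted libraries and the 2 day 3 libraries were taken by their labels, and they make up 5 of the 11 libraries of the series, over all genes. The labels describe the sorted group as wild type cells of strain 129, grown in monolayer with retinoic acid (RA) and SAG, an agonist of the hedgehog transducer Smoothened, over days 0 to 3, and sorted for the surface protein Prominin-1. The day 3 group had the same genotype, strain, growth and treatment, without a sort. One label of the sorted libraries gives day 3.5 and another gives 3 days, and day 3.5 is used here. The sorted libraries also carry another project code than those of days 0 to 3. Sort, day and project code therefore cannot be told apart in any difference given here. The labels do not say whether the libraries of a group came from separate cultures, so p-values measure only the spread between these libraries, which may be technical.

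Prominin-1 (CD133) sits on the apical protrusions of neuroepithelial and radial glial cells, the dividing cells that line the lumen of the neural tube. Such cells are held together by N-cadherin junctions, are kept from differentiating by Notch signaling, and give rise to neurons that leave the lumen. Differentiating embryonic stem cell cultures can also hold other cells, among them extraembryonic endoderm, epithelium and cells that have not left pluripotency, and Prominin-1 is found on several epithelia outside the nervous system.

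The sorted libraries held 13173675 to 17113432 counts each, and the day 3 libraries 30115249 and 30264385. A level of 3 counts, treated as the floor, was 0.175 to 0.228 CPM (counts scaled to a common library size) in the sorted libraries and at most 0.0996 CPM at day 3, and it covers counting error only. Over 13656 genes the log2 difference between libraries had an SD of 0.3 to 0.459 within the sorted group, 0.391 between the day 3 libraries and 0.424 to 0.696 between the groups. Those ranges overlapped, since sorted replicate 2 and day 3 replicate 2 stood closer together than sorted replicates 1 and 3. All 7 radial progenitor markers, of which the labels name only Prominin-1, were measured, with 1 called higher and 6 not called. Their summed level was 1559 to 1848 CPM in sorted libraries, against 1200 and 1225 CPM at day 3. Nes made up the largest part (mean 893 CPM in sorted libraries, 587 CPM at day 3). Prom1, Fabp7 and Sox2 also had higher means in sorted libraries, while Sox1, Pax6 and Slc1a3 had lower ones. The 5 markers of young neurons were present as well, with summed levels of 668 to 1070 CPM in sorted libraries and 693 and 787 CPM at day 3, which overlapped.

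Genes lower in the sorted cells were far more numerous than genes higher in them. Of 17006 genes tested, 499 (2.93%) were lower and 74 (0.435%) higher in sorted cells than at day 3 by edgeR's quasi-likelihood test at a Benjamini-Hochberg adjusted p of 0.05. At an unadjusted p under 0.05 there were 2621 of the 17006 genes, the share to set beside such counts of a list. The groups did not overlap in a larger share of tested genes, 19.1% with every sorted library lower and 14.3% with every sorted library higher. Among the called genes, 414 fell by at least 1 on the log2 scale and 54 rose by at least 1, while the median log2 fold change of all tested genes was -0.0052. Of the called genes 12.91% were higher. That share was 27.89% after an offset for GC content, which called 323 genes higher and 835 lower. The median log2 fold change was 0.114 in the fifth of genes with the lowest GC content and -0.144 in the fifth with the highest. Pseudogenes made up 16 of the 74 higher genes, against 1277 of the 17006 tested, and near-identical copies can share reads with their parent gene. The counts depended on single libraries: 11 genes were higher and 173 lower without day 3 replicate 1, 11 and 219 without sorted replicate 1, and 12 and 234 without sorted replicate 2. Only 34, 32 and 35 higher genes were called without day 3 replicate 2, day 2 replicate 1 or day 2 replicate 2. In the fits that left out a library, 6 of the 74 higher and 141 of the 499 lower calls held every time.

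**Figure D1:**
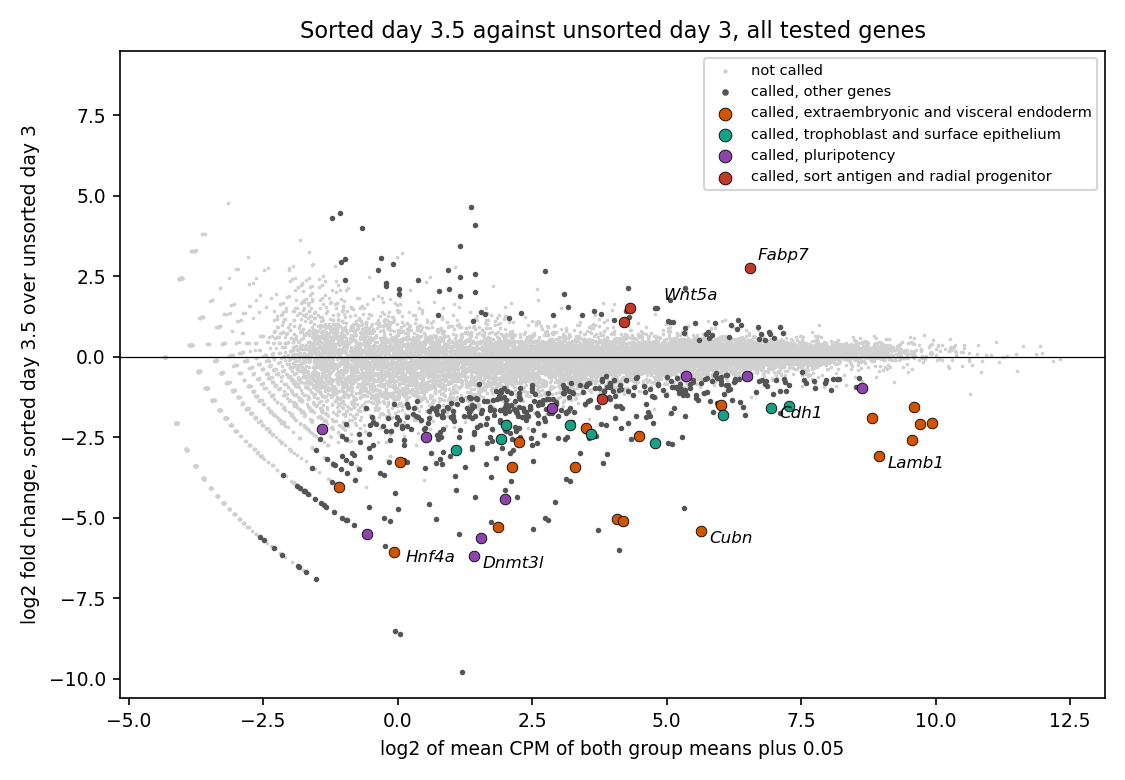
Log2 fold change of sorted day 3.5 over unsorted day 3 (vertical axis) against the mean level of both groups on a log2 scale (horizontal axis) for each of the 17006 tested genes, with called genes in dark grey or in the color of their list. Called genes lie mostly below 0, where 499 stand against 74 above it, and the position of a gene with almost no counts in one group depends on the prior count of the fit.

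The lowest list median belonged to genes of extraembryonic endoderm, the tissue that lines the yolk sac and takes up and secretes nutrients and proteins for the embryo. Of 26 genes on this list 25 were tested, and 19 were lower, 0 higher and 6 not called. The median log2 fold change of the tested genes was -2.46, against -0.005 over all genes tested. Summed over the list, the level was 1425 to 1954 CPM in sorted libraries and 5504 and 9377 CPM at day 3. In bulk RNA, fewer cells of a type and less RNA per cell cannot be told apart. The list had 14 to 19 lower genes when each of the 5 compared libraries was left out, and 12 were lower when a fold change of more than 2 was required by the test.

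Uptake receptors of the visceral endoderm fell by different amounts. Cubn (cubilin, an endocytic receptor; GRCm38 chromosome 2, 13276338 to 13491813, minus strand) had 3.11, 2.01 and 1.54 CPM in sorted libraries and 96.0 and 98.3 CPM at day 3. Every sorted library was below both day 3 libraries by a wide gap, and the fall was 43.1-fold (log2 fold change -5.43 ± 0.22 SE, adjusted p = 6.96e-07). Dab2, an endocytic adaptor, had 36.0, 32.8 and 31.2 CPM in sorted libraries and 103 and 87.8 CPM at day 3 (log2 fold change -1.52 ± 0.17, adjusted p = 0.000754). That fall was 2.86-fold, again without overlap. Lrp2 (megalin), the partner of cubilin and also an apical receptor of neuroepithelium that binds Shh, had 182, 190 and 162 CPM in sorted libraries and 340 and 287 CPM at day 3. It was lower by 0.81 ± 0.13 on the log2 scale (adjusted p = 0.00579), a call lost without day 3 replicate 1 (adjusted p = 0.0749).

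Transcription factors that specify this tissue were lower as well. Gata4 (chromosome 14, 63198922 to 63271692, minus strand) had 0.538, 1.75 and 0.662 CPM in sorted libraries and 40.2 and 25.5 CPM at day 3 (log2 fold change -5.05 ± 0.38, adjusted p = 4.31e-05). Gata6 had 2.21, 1.30 and 1.47 CPM in sorted libraries against 20.004 and 15.9 CPM at day 3 (log2 fold change -3.42 ± 0.24, adjusted p = 2.74e-05). Both GATA factors were therefore detected above the floor in all 5 libraries, with no overlap between groups. Sox17 had 0.299, 0.195 and 0 CPM in sorted libraries and 8.68 and 5.40 CPM at day 3 (log2 fold change -5.30 ± 0.56, adjusted p = 0.000423), and Sox7 was lower by 3.43 ± 0.28 on the log2 scale. Hnf4a, a nuclear receptor of visceral endoderm, had a single count over the 3 sorted libraries and 113 counts at day 3. Scaled to library size, the day 3 level was 82.6 times the sorted one, with a 95% counting interval of 14.5 to 3293. Foxa1, which is also a gene of the floor plate, was the one tested member with a positive value and was not called (61.8, 47.7 and 56.3 CPM in sorted libraries, 46.6 and 42.9 CPM at day 3).

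Basement membrane genes were the most abundant of the list. Laminin 111, the first laminin of the embryo, is built from the products of Lama1, Lamb1 and Lamc1. Lamb1 (chromosome 12, 31265234 to 31329644, plus strand) had 85.1, 110 and 115 CPM in sorted libraries and 1086 and 687 CPM at day 3, 8.58-fold lower (log2 fold change -3.10 ± 0.22, adjusted p = 2.74e-05). Lama1 fell by 2.60 ± 0.24 and Lamc1 by 2.09 ± 0.21 on the log2 scale, and differences among these 3 subunits were not tested. Col4a1 had 252, 384 and 496 CPM in sorted libraries and 2107 and 1051 CPM at day 3 (log2 fold change -2.06 ± 0.38, adjusted p = 0.0141), and its neighbor Col4a2, which starts within the same stretch on the other strand, fell by 1.92 ± 0.38. Both collagen calls were lost without day 3 replicate 1, sorted replicate 1 or sorted replicate 2 (adjusted p = 0.0619 to 0.259). The matrix glycoprotein Sparc had 340, 397 and 430 CPM in sorted libraries and 1408 and 906 CPM at day 3 (log2 fold change -1.57 ± 0.19). Day 3 replicate 1 was above day 3 replicate 2 for all of these matrix genes, and both remained above every sorted library.

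Secreted and other products of the list moved the same way. The proteoglycan Srgn had 1.196, 1.04 and 0.809 CPM in sorted libraries and 41.9 and 28.4 CPM at day 3 (log2 fold change -5.10 ± 0.27, adjusted p = 7.79e-06). Ttr, a carrier of thyroid hormone and retinol, had 2 counts over the sorted libraries and 50 at day 3, where its level was 18.3 times the sorted one (95% counting interval 4.80 to 155). Follistatin (Fst), which binds activin, fell by 2.46 ± 0.26, the homeobox gene Rhox5 by 2.23 ± 0.37, the coregulator Cited1 by 2.64 ± 0.37 and the hedgehog ligand Ihh by 3.28 ± 0.66 on the log2 scale. The calls of Ttr and Ihh were lost without day 3 replicate 1, sorted replicate 1 or sorted replicate 2 (adjusted p = 0.0621 to 0.148), and that of Rhox5 without day 3 replicate 1 (adjusted p = 0.103). The fetal serum protein Afp, often used as a marker, was low in both groups but above the floor in each library (0.478, 0.584 and 0.368 CPM in sorted libraries, 0.535 and 1.04 CPM at day 3) and was not called. Apoe, Pth1r, Apob and Amn were also not called, with log2 fold changes of -1.66 to -0.75. The 6 endoderm markers used to check cell types summed to 33.7 to 39.6 CPM in sorted libraries, mostly Dab2, and to 136 and 173 CPM at day 3.

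**Figure D2:**
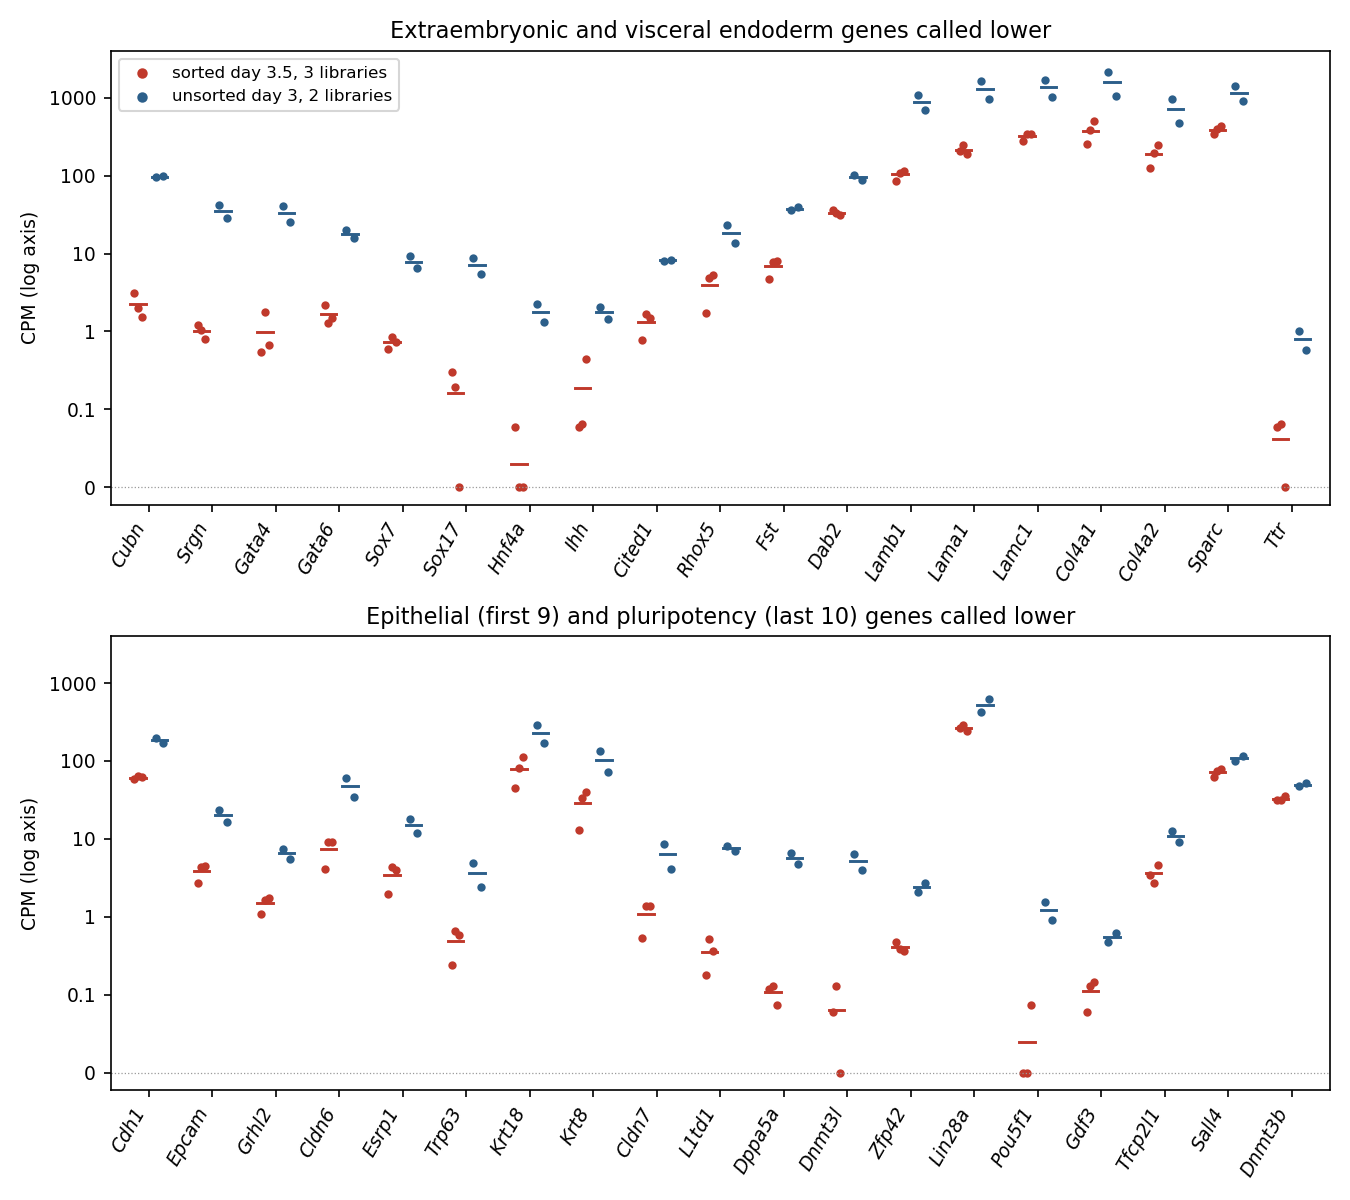
CPM on a log axis of each sorted day 3.5 library (red, left) and each unsorted day 3 library (blue, right) for the 19 endoderm genes called lower (upper panel) and the 9 epithelial and 10 pluripotency genes called lower (lower panel), with group means as bars and libraries without a count on the dotted 0 line. No red point reaches a blue point of the same gene.

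Epithelial genes showed the next largest median fall. Of 17 genes of trophoblast and surface epithelium 16 were tested, 9 were lower and 0 higher, with a median log2 fold change of -1.98. Their summed level was 156 to 292 CPM in sorted libraries and 562 and 852 CPM at day 3. E-cadherin (Cdh1; chromosome 8, 106603351 to 106670246, plus strand) had 58.0, 63.6 and 61.4 CPM in sorted libraries and 198 and 171 CPM at day 3 (log2 fold change -1.60 ± 0.15, adjusted p = 0.000253). N-cadherin (Cdh2), which replaces E-cadherin in neuroepithelium, had 445, 394 and 387 CPM in sorted libraries and 368 CPM in each day 3 library and was not called (log2 fold change 0.15 ± 0.12, adjusted p = 0.603). The pair thus differed in whether a change was called, and the difference between them was not tested.

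The adhesion protein Epcam had 2.75, 4.34 and 4.49 CPM in sorted libraries and 23.8 and 16.7 CPM at day 3 (log2 fold change -2.40 ± 0.24, adjusted p = 0.0003). Tight junction claudin Cldn6 had 4.06, 9.21 and 9.12 CPM in sorted libraries and 60.9 and 34.4 CPM at day 3 (log2 fold change -2.68 ± 0.33, adjusted p = 0.00119). Sorted replicate 1 was the lowest library for both genes. It was also the lowest for the simple-epithelium keratins Krt8 (12.9, 33.5 and 40.4 CPM in sorted libraries, 133 and 71.6 CPM at day 3) and Krt18 (45.7, 80.4 and 112 CPM in sorted libraries, 291 and 170 CPM at day 3), which fell by 1.83 ± 0.43 and 1.54 ± 0.33 on the log2 scale. Grhl2, a transcription factor of epithelial junctions, fell by 2.14 ± 0.25, and Esrp1, a splicing factor of epithelia, by 2.12 ± 0.32. Without day 3 replicate 1 the list had 4 lower genes instead of 9, with Krt8 (adjusted p = 0.399), Krt18 (0.319), Esrp1 (0.0545) and Trp63 (0.105) among those lost. Krt8 and Krt18 were also lost without sorted replicate 1 or sorted replicate 2 (adjusted p = 0.0648 to 0.116), and were called in 6 and 8 of the 11 fits that left out a library. The deposited FPKM values gave 4 or 5.

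Most pluripotency genes on the list were already at a low level at day 3, and sorted cells had less. All 20 genes of the list were tested, 10 were lower, 0 were higher and 0 had a positive log2 fold change, with a median of -1.70. The summed level was 676 to 786 CPM in sorted libraries and 963 and 1283 CPM at day 3. L1td1, an RNA-binding protein of pluripotent cells, had 0.179, 0.519 and 0.368 CPM in sorted libraries and 8.11 and 7.02 CPM at day 3 (log2 fold change -4.41 ± 0.28, adjusted p = 1.92e-05). Dppa5a, a KH-domain protein, had 0.120, 0.130 and 0.0735 CPM in sorted libraries and 6.57 and 4.78 CPM at day 3 (log2 fold change -5.64 ± 0.40, adjusted p = 2.74e-05). Dppa5a was thus under the floor in every sorted library and L1td1 at or above it.

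Lin28a, which blocks maturation of let-7 microRNAs, was the gene called on this list with the highest CPM. Its levels were 266, 287 and 246 CPM in sorted libraries and 426 and 628 CPM at day 3 (log2 fold change -0.99 ± 0.16, adjusted p = 0.00713). Its paralog Lin28b did not follow it, with 214, 206 and 171 CPM in sorted libraries and 176 and 226 CPM at day 3 (log2 fold change -0.03 ± 0.15, adjusted p = 0.97). Dnmt3l, the catalytically inactive partner of the de novo DNA methyltransferases, had 3 counts over the sorted libraries and 327 at day 3, where its level was 79.7 times the sorted one (95% counting interval 27.0 to 389). Dnmt3b, one of those enzymes, had 31.4, 31.2 and 35.7 CPM in sorted libraries and 47.4 and 51.5 CPM at day 3 (log2 fold change -0.59 ± 0.14, adjusted p = 0.0462), a call lost without any of the 5 compared libraries (adjusted p = 0.0609 to 0.188) and kept in 3 of 11 fits that left out a library. The central factor Pou5f1 (Oct4) had 1 count over the sorted libraries and 77 at day 3, a ratio of 56.3 with a 95% counting interval of 9.81 to 2253. Its call was lost without day 3 replicate 1, sorted replicate 1 or sorted replicate 2 (adjusted p = 0.0666 to 0.111). Each of those 3 omissions left 5 lower genes on the list instead of 10, and log2(FPKM + 1) gave 6, or 5 without a filter. Nanog, Klf4 and Esrrb were not called, and Nanog was at or under 0.346 CPM in all 5 libraries.

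Fewer genes were called in the mesenchymal, endothelial and metabolic lists. Pdgfra, the receptor of mesenchyme and primitive endoderm for platelet-derived growth factor, had 8.55, 10.1 and 7.80 CPM in sorted libraries and 69.6 and 42.9 CPM at day 3 (log2 fold change -2.68 ± 0.22, adjusted p = 9.22e-05). Col1a2, a chain of collagen I, fell by 2.08 ± 0.30 on the log2 scale, and they were the 2 called of 17 tested neural crest and mesenchyme genes. The median log2 fold change of the 17 was -0.561. Every sorted library was lower in 8 of them and higher in 0, against 19.1% and 14.3% of all tested genes. The endothelial receptor Tek was the single call of 14 tested mesoderm, endothelium and blood genes (log2 fold change -1.64 ± 0.27), and it was lost without day 3 replicate 1 (adjusted p = 0.0865). The median log2 fold change of those 14 genes was -1.63, close to that of the pluripotency list. Every sorted library was lower in 8 of the 14 and higher in 1. By edgeR 6 of them had an unadjusted p under 0.05, all lower, against 2621 of 17006 tested genes in both directions. Sox10, the defining factor of migrating neural crest, had no count in any of the 5 compared libraries. The embryonic globin gene Hbb-bh1 had no count in the sorted libraries and 6 and 2 counts at day 3. The neuronal glucose transporter Slc2a3 had 82.4, 68.4 and 39.5 CPM in sorted libraries and 233 and 193 CPM at day 3 (log2 fold change -1.74 ± 0.23, adjusted p = 0.00182). It was one of 2 lower genes among 24 tested glycolysis and hypoxia genes. The other lower gene, Ndrg1, was lost without day 3 replicate 1 (adjusted p = 0.125). The list as a whole leaned the other way, with a median log2 fold change of 0.273 and 16 of 24 positive. By edgeR 9 of the 24 had an unadjusted p under 0.05, 6 of them higher and 3 lower. The GC offset called 4 of the list higher. Using no filter on low counts, the replicate block or leaving out sorted replicate 3 called 3 higher. Ldha, the lactate dehydrogenase subunit of that list, ran from 145 to 402 CPM among the sorted libraries and was 149 and 157 CPM at day 3.

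Other genes among the 10 largest falls belonged to none of the groups above. Pga5, a pepsinogen, had 0.418, 0.973 and 0.441 CPM in sorted libraries and 31.2 and 20.2 CPM at day 3 (log2 fold change -5.38 ± 0.38, adjusted p = 2.74e-05). The adenosine receptor gene Adora1 fell by 5.37 ± 0.55 and Sh3tc2 by 5.14 ± 0.45 on the log2 scale. All 10 of the largest falls were called in each of the 11 fits that left out a library.

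Among genes of the RA pathway, the breakdown enzyme had the largest fall. Cyp26a1 (chromosome 19, 37697798 to 37701536, plus strand), which hydroxylates RA, had 0.359, 0.584 and 0.221 CPM in sorted libraries and 16.4 and 10.5 CPM at day 3, 33.9-fold lower (log2 fold change -5.08 ± 0.35, adjusted p = 2.74e-05). Nr2f1 (COUP-TFI), an orphan receptor induced by RA, had 197, 192 and 157 CPM in sorted libraries and 78.0 and 113 CPM at day 3 (log2 fold change 0.93 ± 0.22, adjusted p = 0.0423). It was the single higher gene of 20 tested, and 3 were lower. The lower ones besides Cyp26a1 were the receptor Rarg (log2 fold change -1.40 ± 0.33, adjusted p = 0.0462) and the retinol transporter Stra6 (log2 fold change -1.20 ± 0.29, adjusted p = 0.0473). Omitting either day 3 library, sorted replicate 1 or 2, or day 2 replicate 2 left 1 lower gene, Cyp26a1, as did the deposited FPKM and scaling by library totals alone. Nr2f1 was lost without day 3 replicate 1, sorted replicate 1 or 2, or either day 2 library (adjusted p = 0.0654 to 0.391). The synthesis enzyme Aldh1a2, the receptor Rarb and the binding proteins Crabp1 and Crabp2 were not called.

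The sorted antigen itself was not called. Prom1 (chromosome 5, 43993620 to 44102032, minus strand) had 334, 281 and 284 CPM in sorted libraries and 262 and 214 CPM at day 3 (log2 fold change 0.33 ± 0.15, adjusted p = 0.315). The groups did not overlap, and the difference was 1.26-fold. A sort selects on the protein at the surface, which these libraries do not measure. Per length, the deposited FPKM of Prom1 averaged 64.8 in sorted cells and 53.6 at day 3, whereas Vim, an intermediate filament of radial cells, averaged 1314 in sorted cells and 1170 at day 3.

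Of 25 genes of radial progenitors 24 were tested, of which 3 were higher, 1 was lower and 20 were not called. Their median log2 fold change was 0.30, and 19 had a positive value. Every sorted library was higher in 11 of the 24 and lower in 2, against 14.3% and 19.1% of all tested genes. By edgeR 10 of the 24 had an unadjusted p under 0.05, 8 higher and 2 lower, against 2621 of 17006 tested genes. Over all tested genes 0.435% were called higher and 2.93% lower. Summed levels were 5329 to 5542 CPM in sorted libraries and 4117 and 4645 CPM at day 3. The count of higher genes was 6 with the offset for GC content, 5 with DESeq2, and 1 without sorted replicate 1 or with the deposited FPKM. Factors that define neural progenitors were not called. Sox2 had 224, 183 and 201 CPM in sorted libraries and 192 and 197 CPM at day 3 (log2 fold change 0.06 ± 0.17, adjusted p = 0.927). Sox1 had 58.5, 58.8 and 65.5 CPM in sorted libraries and 62.6 and 92.4 CPM at day 3, and was not called. Pax6 had 32.3, 42.7 and 29.1 CPM in sorted libraries, which lay between the 12.3 and 65.9 CPM of the day 3 libraries. Nestin (Nes), a filament of progenitors, had 923, 934 and 822 CPM in sorted libraries and 619 and 554 CPM at day 3, without overlap, and missed the threshold (log2 fold change 0.61 ± 0.16, adjusted p = 0.0678). Vim and the glutamate transporter Slc1a3 were not called, and their groups overlapped.

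Fabp7 (brain lipid-binding protein, a fatty acid carrier of radial glia and a Notch target in mouse) rose the most of all genes named by size. It lies on chromosome 10 at 57784881 to 57788450, plus strand. Its levels were 232, 144 and 111 CPM in sorted libraries and 16.95 and 30.9 CPM at day 3, 6.78-fold higher (log2 fold change 2.76 ± 0.36, adjusted p = 0.00148). The lowest sorted library was above the highest day 3 library by a clear margin, and the call held in all 11 fits that left out a library. The mean was 3.58 CPM at day 2. Ptprz1, a receptor phosphatase of radial glia, had 38.3, 27.7 and 22.6 CPM in sorted libraries and 8.84 and 11.8 CPM at day 3 (log2 fold change 1.52 ± 0.28, adjusted p = 0.0142). Ttyh1, a membrane protein of neural stem cells, had 25.3, 21.7 and 27.9 CPM in sorted libraries and 14.7 and 9.17 CPM at day 3 (log2 fold change 1.06 ± 0.23, adjusted p = 0.029). Both had groups that did not overlap, but neither call was stable. Ptprz1 was lost without day 3 replicate 1 (adjusted p = 0.185) or sorted replicate 1 (adjusted p = 0.0531), and Ttyh1 without day 3 replicate 2, any sorted library or either day 2 library (adjusted p = 0.0533 to 0.147). The Wnt receptor Fzd5 was the lower gene, with 7.17, 7.72 and 9.05 CPM in sorted libraries and 23.5 and 15.96 CPM at day 3 (log2 fold change -1.31 ± 0.23, adjusted p = 0.0107). It was lost without day 3 replicate 1, sorted replicate 1 or sorted replicate 2 (adjusted p = 0.0572 to 0.139).

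The bases upstream of Fabp7 and of the endoderm gene Hnf4a are shown because these genes stand near the opposite ends of the named changes and each has a motif of a factor of its pathway in this stretch. The 250 bases before the RefSeq start (GRCm38.p6, plus strand) lie at chr10:57784673-57784922 for Fabp7 and chr2:163506607-163506856 for Hnf4a. The start of Fabp7 given above, 57784881, lies inside its stretch, so the last bases shown are upstream of the RefSeq start only. Capitals mark TGGGAA, the core bound by the Notch effector RBPJ, read as its reverse complement in Fabp7, and GATAA, the GATA factor motif, in Hnf4a.
Fabp7: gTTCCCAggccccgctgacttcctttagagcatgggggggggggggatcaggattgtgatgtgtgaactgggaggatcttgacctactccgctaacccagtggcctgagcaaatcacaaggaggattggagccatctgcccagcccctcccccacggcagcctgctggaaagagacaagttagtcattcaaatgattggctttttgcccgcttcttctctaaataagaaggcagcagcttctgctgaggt
Hnf4a: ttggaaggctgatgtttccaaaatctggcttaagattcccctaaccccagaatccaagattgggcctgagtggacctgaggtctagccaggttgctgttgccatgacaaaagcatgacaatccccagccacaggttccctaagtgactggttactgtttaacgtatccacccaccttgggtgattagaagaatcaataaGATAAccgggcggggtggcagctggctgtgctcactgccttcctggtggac
Both motifs were searched on both strands, and their letters cannot share bases. TGGGAA was found in 20.6% of the 11170 tested genes with a promoter in the RefSeq table, in 8 of 36 genes called higher (22.2%) and in 21.8% of 330 called lower. GATAA was found in 14.6% of all, in 7 of 36 called higher (19.4%), in 16.4% of those called lower and in 2 of 11 endoderm genes called lower. A match describes the letters in this window and is not a site.

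The other called genes with the largest rises were of mixed roles. Wnt5a (chromosome 14, 28504750 to 28527448, plus strand), a Wnt ligand of the ventral midline, had 45.0, 38.8 and 37.95 CPM in sorted libraries and 12.2 and 16.5 CPM at day 3 (log2 fold change 1.5 ± 0.20, adjusted p = 0.0016). It held in all 11 fits that left out a library. The ephrin receptor Epha3 had 14.4, 11.7 and 8.31 CPM in sorted libraries and 0.849 and 2.80 CPM at day 3 (log2 fold change 2.65 ± 0.58, adjusted p = 0.0305), and was the single call of 28 tested axon guidance genes. Ptpn5, a tyrosine phosphatase of neurons, had 33.3, 33.5 and 28.1 CPM in sorted libraries and 6.89 and 7.67 CPM at day 3 (log2 fold change 2.12 ± 0.40, adjusted p = 0.0146). All 3 had groups that did not overlap, which the rule for naming the largest changes required, and the day 3 libraries of Epha3 differed between themselves by no less, as a ratio, than the gap between the groups. Calls of Epha3 and Ptpn5 were lost without day 3 replicate 1, sorted replicate 1 or sorted replicate 2, and that of Ptpn5 also without day 3 replicate 2 (adjusted p = 0.0577 to 0.251).

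Further large rises were seen for Enpp2 (autotaxin, which makes lysophosphatidic acid; log2 fold change 1.77 ± 0.40), the rhomboid-like gene Rhbdl3 (1.5 ± 0.31), the interleukin 4 receptor chain Il4ra (1.41 ± 0.28) and the cyclic GMP phosphodiesterase Pde9a (1.37 ± 0.28). Their adjusted p ran from 0.0178 to 0.0348. All 4 calls were lost without day 3 replicate 1, sorted replicate 1 or sorted replicate 2, the first, second and last of them also without day 3 replicate 2, Enpp2 also without day 2 replicate 1 and Pde9a also without sorted replicate 3 (adjusted p = 0.0536 to 0.248). The pseudogene Rplp0-ps1, whose reads can be shared with Rplp0, had 13.2, 18.2 and 23.5 CPM in sorted libraries and 7.64 and 5.98 CPM at day 3. Its log2 fold change was 1.42 ± 0.27 in counts and -0.22 in the deposited FPKM, so no direction is drawn from it, and its call was lost without either day 3 library or sorted replicate 2 (adjusted p = 0.0641 to 0.112). The glial factor Nfib had 6.69, 5.32 and 5.22 CPM in sorted libraries and 2.48 and 2.57 CPM at day 3 (log2 fold change 1.19 ± 0.29, adjusted p = 0.0481), a call lost without any of the 5 compared libraries or either day 2 library (adjusted p = 0.064 to 0.297).

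**Figure D3:**
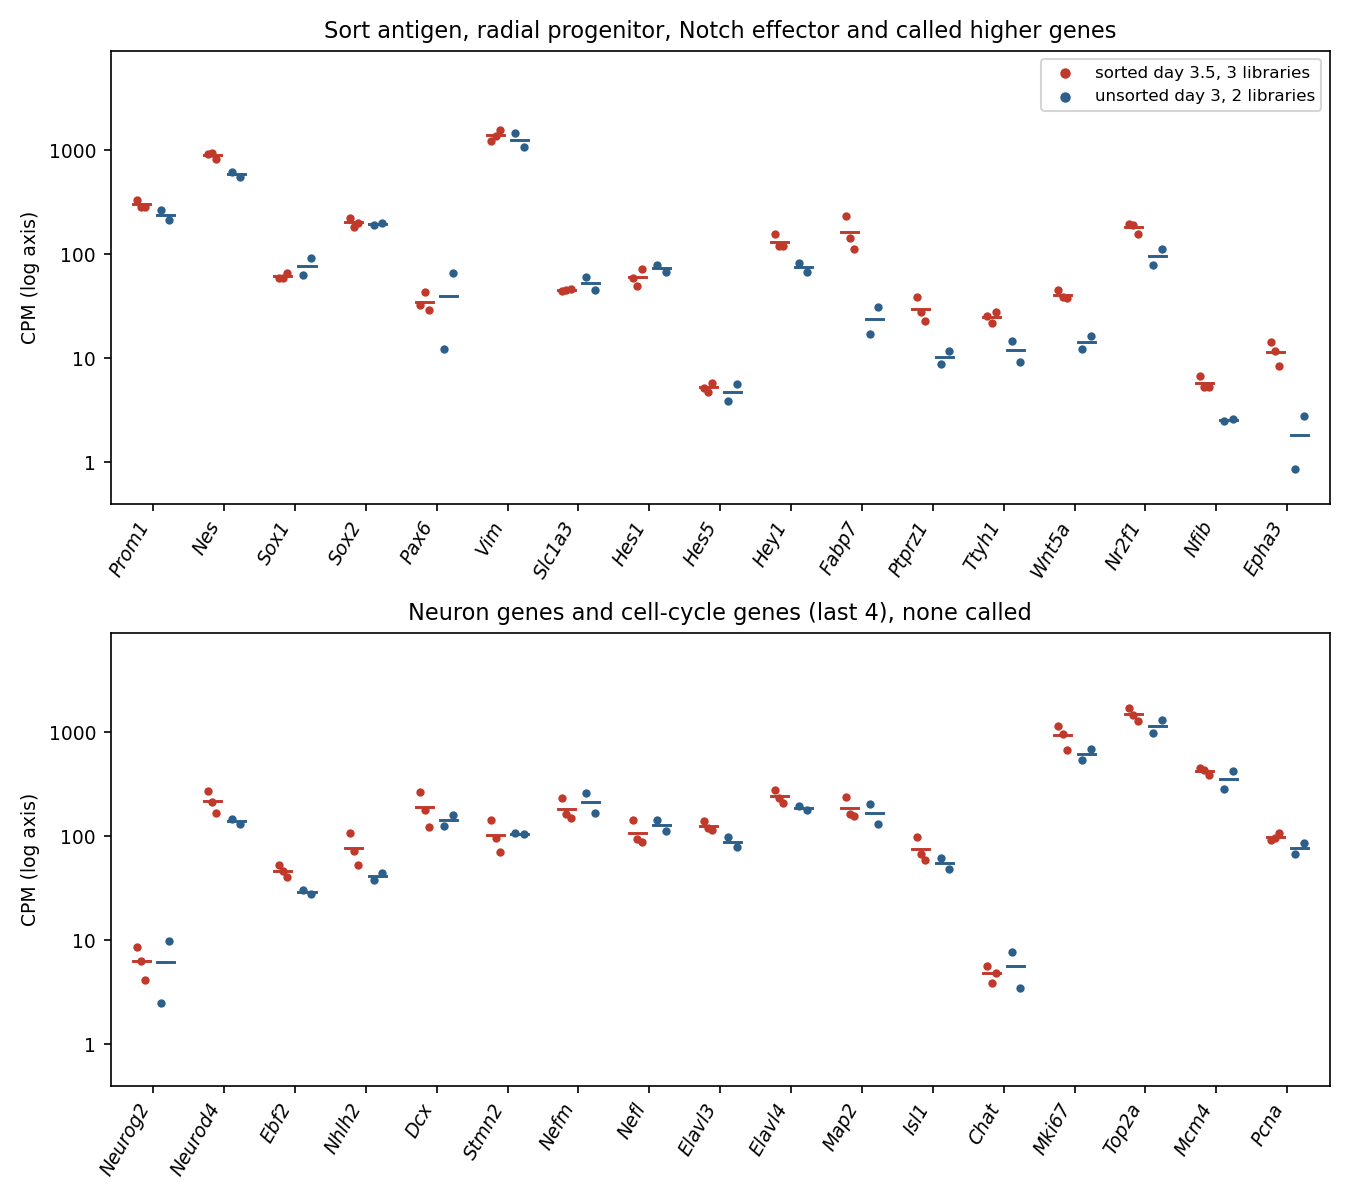
CPM on a log axis of each sorted day 3.5 library (red, left) and each unsorted day 3 library (blue, right), with group means as bars, for progenitor, Notch and called higher genes (upper panel) and for neuron and cell-cycle genes, none of them called (lower panel). Fabp7, Wnt5a and Epha3 stand clear of day 3, while Sox2, Stmn2 and Nefm have groups that overlap.

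Notch receptors and effectors were not called in any of 17 tested genes by edgeR, with 3 at an unadjusted p under 0.05, and DESeq2 and the GC offset called 2 higher each. Of all 17006 tested genes 2621 had such a p. Hey1, a repressor induced by Notch, had 156, 119 and 120 CPM in sorted libraries and 81.8 and 66.9 CPM at day 3, and missed the threshold (log2 fold change 0.83 ± 0.22, adjusted p = 0.0762). The feedback inhibitor Nrarp had 73.2, 63.6 and 65.2 CPM in sorted libraries and 38.8 and 49.5 CPM at day 3 (adjusted p = 0.134). Groups of both genes did not overlap, as in 3 of the 17 genes in all, against 14.3% of all tested genes with every sorted library higher. The effectors Hes1 and Hes5 had overlapping groups, with log2 fold changes of -0.28 ± 0.31 and 0.14 ± 0.37. The ligand Dll1 had 91.2, 97.1 and 104 CPM in sorted libraries and 65.0 and 65.3 CPM at day 3 (adjusted p = 0.24), and 0 of 13 tested ligands and partners were called by edgeR or DESeq2, with 2 at an unadjusted p under 0.05.

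Neuron genes gave no call. None of 30 tested genes of the neuronal cytoskeleton, adhesion and RNA binding, 20 proneural and early neuron factors, 25 synaptic genes, 18 motor neuron genes, 9 serotonergic genes and 11 interneuron and sensory genes was called by edgeR. Their median log2 fold changes were 0.145, 0.319, -0.043, 0.222, -0.331 and -0.122 in that order, and 4, 3, 1, 1, 3 and 1 of them had an unadjusted p under 0.05. Over all tested genes 2621 of 17006 did. Dcx, a microtubule protein of migrating neurons, had 268, 177 and 123 CPM in sorted libraries and 124.7 and 161 CPM at day 3 (log2 fold change 0.41 ± 0.27, adjusted p = 0.514), after a mean of 9.84 CPM at day 2. Stmn2, a growth cone protein, had 143, 96.3 and 71.0 CPM in sorted libraries and 108 and 104 CPM at day 3 (adjusted p = 0.972), and the neurofilament gene Nefm 235, 162 and 149 CPM in sorted libraries and 261 and 168 CPM at day 3 (adjusted p = 0.663). Sorted replicate 1 was the highest sorted library for all 3 genes. For all 3 genes the sorted libraries lay on both sides of a day 3 library.

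Groups did not overlap, with the sorted libraries higher, in 5 of 20 proneural and early neuron factors and 6 of 30 cytoskeleton, adhesion and RNA-binding genes, against 14.3% of all tested genes, and none passed the test. Neurod4, a proneural factor, had 273, 211 and 169 CPM in sorted libraries and 145 and 133 CPM at day 3 (log2 fold change 0.65 ± 0.20, adjusted p = 0.12). Ebf2, a factor of newborn neurons, had 52.8, 46.2 and 40.7 CPM in sorted libraries and 30.7 and 27.8 CPM at day 3 (adjusted p = 0.0579). The RNA-binding genes Elavl3 and Elavl4 had log2 fold changes of 0.51 ± 0.17 and 0.36 ± 0.16 and no overlap. The motor neuron factor Isl1 had overlapping groups. DESeq2 called 1 gene of the cytoskeleton list and 2 proneural genes higher, and the GC offset called 2 and 1 and a serotonergic gene lower.

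Cell-cycle genes leaned upward without a call. All 27 tested S phase genes had a positive log2 fold change, with a median of 0.291, and 0 were called by edgeR or DESeq2. An unadjusted p under 0.05 was found in 6 of them, against 2621 of 17006 over all genes. Of 25 tested G2 and M phase genes 24 were positive, with a median of 0.214, and again 0 were called, with 2 at an unadjusted p under 0.05. Mki67, a marker of cycling cells, had 1154, 973 and 674 CPM in sorted libraries and 546 and 697 CPM at day 3 (log2 fold change 0.59 ± 0.23, adjusted p = 0.237). The replicative helicase gene Mcm4 had 454, 433 and 384 CPM in sorted libraries and 284 and 421 CPM at day 3. The summed S phase level was 5024 to 5447 CPM in sorted libraries and 3730 and 5029 CPM at day 3, so day 3 replicate 2 lay at the lower end of the sorted range and day 3 replicate 1 well below it. Without day 3 replicate 2, 3 S phase genes were called higher, and the GC offset also called 3.

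Hedgehog targets gave no call. Of 11 tested 0 were called by edgeR or DESeq2, with a median log2 fold change of 0.05. An unadjusted p under 0.05 was found in 3, all higher, against 2621 of 17006 over all genes in both directions. Every sorted library was higher in 5 of the 11 and lower in 0, against 14.3% and 19.1% of all tested genes. Ptch1, the receptor induced by the pathway, had 355, 467 and 489 CPM in sorted libraries and 452 and 458 CPM at day 3 (adjusted p = 0.928), and Gli1 36.5, 67.8 and 71.5 CPM in sorted libraries and 42.1 and 70.7 CPM at day 3. Both had groups that overlapped. Of 14 receptors and mediators 2 were lower, namely Lrp2, given above, and Scube2, which helps release the ligand. Scube2 had 0.897, 1.10 and 1.77 CPM in sorted libraries and 7.42 and 7.22 CPM at day 3 (log2 fold change -2.56 ± 0.30, adjusted p = 0.000808).

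Floor plate genes, which mark the ventral midline source of hedgehog ligand, had 1 higher call of 15 tested, which was Wnt5a. Shh had 232, 195 and 263 CPM in sorted libraries and 279 and 114 CPM at day 3, and the guidance cue Ntn1 had 1086, 1174 and 1459 CPM in sorted libraries and 1359 and 765 CPM at day 3. The sorted libraries lay between the day 3 libraries for Shh. Summed over the floor plate list, the sorted libraries had 3520 to 4424 CPM, day 3 replicate 1 had 4439 CPM and day 3 replicate 2 had 2219 CPM. The ventral progenitor factor Nkx6-1 had 166, 165 and 179 CPM in sorted libraries and 133 and 138 CPM at day 3 (log2 fold change 0.32 ± 0.14, adjusted p = 0.275), and Nkx2-2 had 24.6, 19.3 and 17.6 CPM in sorted libraries and 11.7 and 12.1 CPM at day 3 (adjusted p = 0.253). Neither passed the test although neither pair of groups overlapped, and 0 of 12 ventral progenitor genes were called by edgeR or DESeq2. An unadjusted p under 0.05 was found in 3 of the 12, against 2621 of 17006 over all genes.

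Dorsal and anterior genes were low in both groups. Of 16 tested dorsal and intermediate progenitor genes 1 was lower, 0 were higher and 1 had a positive value, with a median log2 fold change of -0.85. Every sorted library was lower in 7 of the 16 and higher in 0, against 19.1% and 14.3% of all tested genes. An unadjusted p under 0.05 was found in 6, all lower, against 2621 of 17006 over all genes in both directions. The count of lower genes was 0 without day 3 replicate 2, sorted replicate 1 or sorted replicate 2, and 2 without sorted replicate 3. Otx2, the forebrain and midbrain factor, had no count in the sorted libraries and 0.283 and 0.0325 CPM at day 3. Of 18 tested hindbrain segmentation and caudal genes 1 was lower, 0 were higher and 10 had a positive value, with a median log2 fold change of 0.178. That count of lower genes was 0 without day 3 replicate 1 or sorted replicate 2.

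Hox genes, which give hindbrain cells their position along the body axis, were not called in 11 genes of paralog groups 1 to 4 or in 14 of groups 5 to 9, with median log2 fold changes of 0.448 and 0.36. At an unadjusted p under 0.05 there were 6 and 4, all higher, against 2621 of 17006 tested genes in both directions. Hoxb4 had 42.1, 35.2 and 35.3 CPM in sorted libraries and 26.1 and 25.5 CPM at day 3 (adjusted p = 0.214), and Hoxb3 had 19.8, 18.7 and 19.0 CPM in sorted libraries and 10.9 and 7.32 CPM at day 3 (adjusted p = 0.0873). The groups of both genes stood apart without reaching the threshold. DESeq2 called 2 genes of each Hox list higher.

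**Figure D4:**
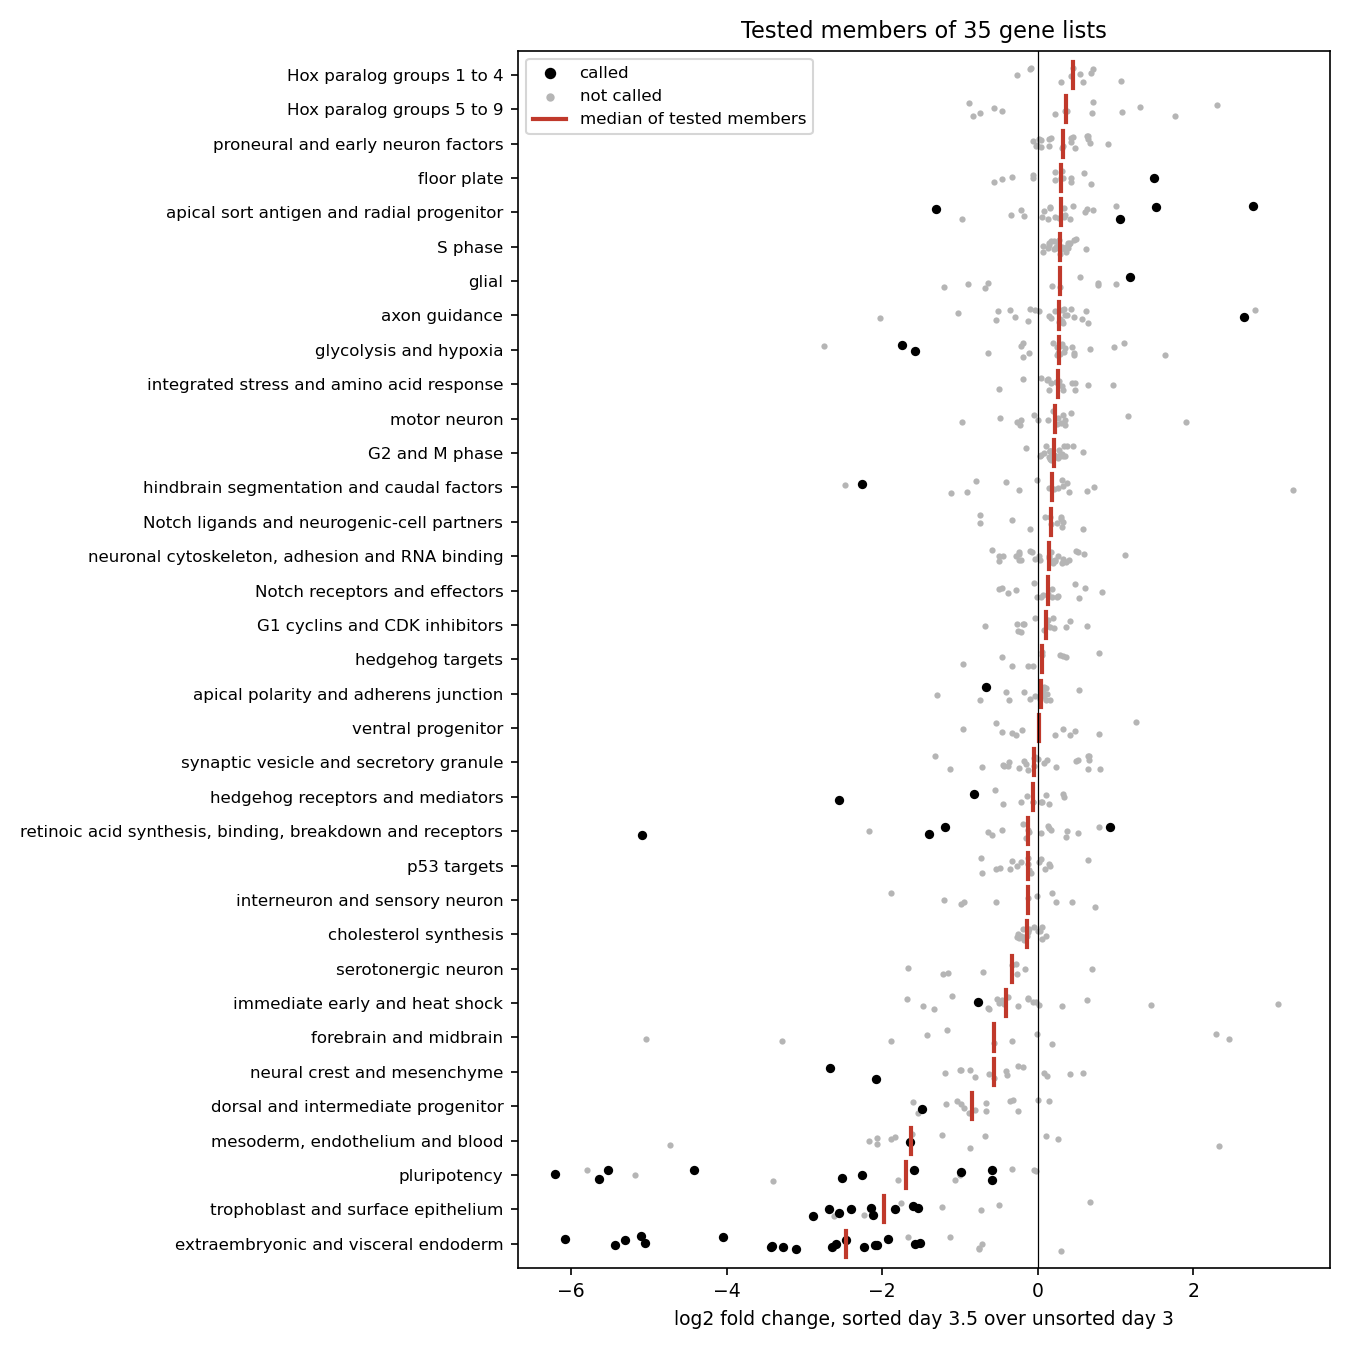
Log2 fold change of sorted day 3.5 over unsorted day 3 for the tested genes of 35 lists, ordered by median, with called genes in black, others in grey and list medians as red lines. The endoderm, epithelium and pluripotency lists hold most black points and have medians of -2.46, -1.98 and -1.70, and lists of neurons and the cell cycle hold none.

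Genes that respond to handling and stress were looked at because the sorted cells alone passed through a sort. Of 22 tested immediate early and heat shock genes 1 was lower and 0 were higher. Their median log2 fold change was -0.405, and 5 had a positive value. An unadjusted p under 0.05 was found in 6 of the 22, with 2 higher and 4 lower, against 2621 of 17006 over all genes. Fos, an immediate early gene, had 14.6, 25.8 and 28.8 CPM in sorted libraries and 11.5 and 5.23 CPM at day 3, without overlap and not called (log2 fold change 1.46 ± 0.66, adjusted p = 0.319). Klf6 was the lower gene, with 83.9, 85.9 and 87.2 CPM in sorted libraries and 149 and 142 CPM at day 3 (log2 fold change -0.76 ± 0.14, adjusted p = 0.013), lost without day 3 replicate 1, sorted replicate 1 or sorted replicate 2 (adjusted p = 0.0607 to 0.113). By edgeR 0 of 18 p53 targets, 17 genes of the integrated stress response, 16 of cholesterol synthesis and 16 G1 cyclins and inhibitors were called. An unadjusted p under 0.05 was found in 3, 3, 0 and 2 of them, against 2621 of 17006 over all genes. DESeq2 called 1 p53 target and 1 stress response gene higher. Among 18 polarity and junction genes 1 was lower, the junction gene Cgnl1 (log2 fold change -0.67 ± 0.14, adjusted p = 0.0217), a call lost without day 3 replicate 1, sorted replicate 1 or sorted replicate 3 (adjusted p = 0.0567 to 0.217).

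Levels at day 2 place the comparison in the course of the culture, as means with no test. Fabp7 averaged 3.58 CPM at day 2, 23.9 CPM at day 3 and 162 CPM in sorted day 3.5 cells, and Wnt5a 7.74, 14.3 and 40.6 CPM. Prom1 averaged 149 CPM at day 2, 238 CPM at day 3 and 299.8 CPM in sorted day 3.5 cells. These means stood in the order of time. Cubn averaged 157 CPM at day 2, 97.1 CPM at day 3 and 2.22 CPM in sorted cells, and Cdh1 averaged 277, 185 and 61.0 CPM. Gata4 and Lamb1 did not follow that order, with 25.8 and 720 CPM at day 2, 32.8 and 886 CPM at day 3 and 0.984 and 103 CPM in sorted cells. For these genes the day 2 and day 3 levels were both far above the sorted ones.

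**Figure D5:**
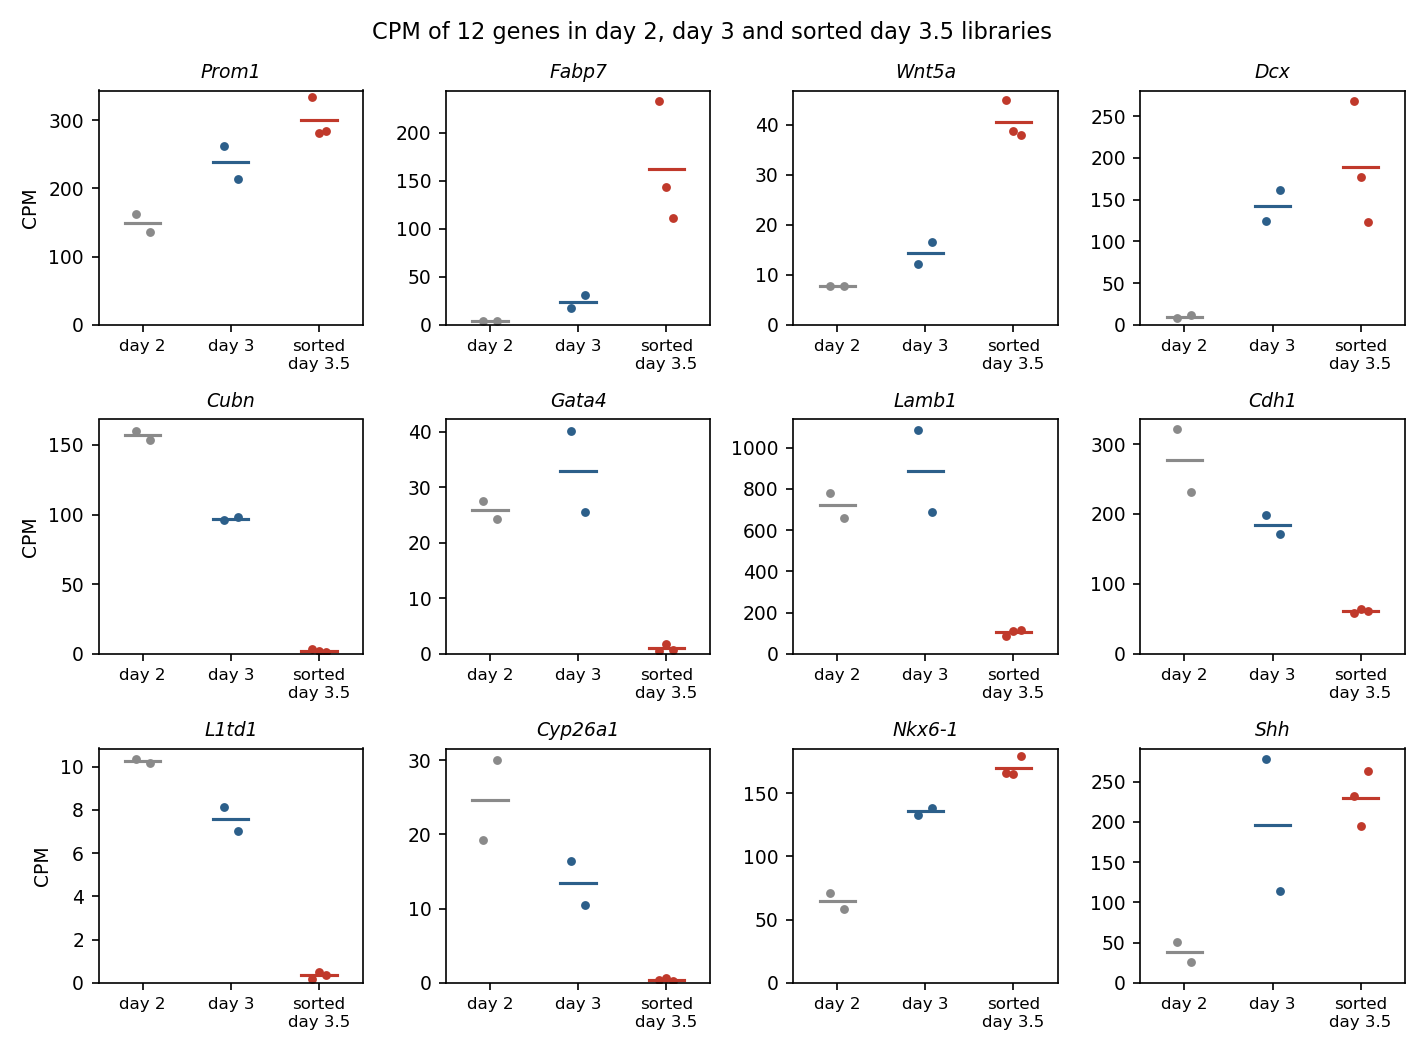
CPM of 12 genes in day 2 (grey, 2 libraries), day 3 (blue, 2 libraries) and sorted day 3.5 libraries (red, 3 libraries), with means as bars and a linear axis from 0 in each panel. Fabp7 and Wnt5a are highest in sorted cells, Cubn, Gata4, Lamb1, L1td1 and Cyp26a1 are high at days 2 and 3 and low in sorted cells, and the day 3 libraries of Shh lie on both sides of the sorted ones.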

How the data were processed

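Polyadenylated RNA of 11 mouse libraries was extracted with a ZymoPure kit and sequenced from TruSeq libraries, per the labels. The submitters' processing notes list, with no role or order, TopHat2 2.0.4, Cufflinks 2.1.1, HTSeq 0.6.1, limma, CASAVA and bcl2fastq 1.8.3, and the genome builds mm10 and GRCm38. Annotation and strand of counting: not given in the sources used here. Overlapping genes and near-identical copies are therefore uncertain. Counts, log2 voom values and FPKM were deposited by the authors for each library. The deposited counts of 38197 genes, of which 104 hold fractions, were treated in the way of expected counts and rounded. The deposited log2 values equal voom values recomputed from these counts within 4.97e-14.

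The test was the quasi-likelihood F test of edgeR 4.0.16, run in R 4.3.3 on counts scaled by TMM and filtered by filterByExpr (minimum count 10), in a group means model over all 11 libraries, which share the spread estimate. P-values were Benjamini-Hochberg adjusted over all 17006 genes, with a threshold of 0.05. CPM are TMM-scaled, and the SE is the size of the log2 fold change over the square root of F. Where a group had at most 3 counts of a gene, its count ratio is given with an exact 95% interval. Coordinates came from GENCODE M21 (GRCm38) by symbol, for 92.67% of tested genes, and promoters from RefSeq (GRCm38.p6). Named genes were the 10 largest called changes in each direction with a minimum of 5 CPM in the higher group, groups that do not overlap and no clone symbol, plus a panel and at most 6 called genes per list. The panel, the 35 lists and their members were chosen with earlier results of these data known. Alternatives used limma 3.58.1 and DESeq2 1.42.0. The edgeR test was checked on simulated counts with the spread estimated from these libraries. It recovered 49.07% of 108 genes changed 2-fold and 94.57% of 92 changed 4-fold, with 6 false calls. A gene that was not called may therefore still differ by 2-fold. The changed genes were drawn only from those above a minimum mean CPM, so recovery of lower genes was not measured. Each gene was simulated on its own, so false calls from shifts shared by many genes of a library were not measured either. A few genes are not reported here.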

Additional observations from a re-analysis of the deposited data

How the results depend on the processing

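In every setting run, 0 genes were called in the opposite direction. All called genes present in a setting had the same sign, except with FPKM, where 515 of 525, 516 of 525 and 562 of 573 did with pseudocounts 1, 0.1 and 1 without a filter. Relative to 74 higher and 499 lower genes, no filter on low counts gave 137 and 856, DESeq2 220 and 758, the GC offset 323 and 835, and a minimum absolute log2 fold change of 1 gave 4 and 103. Libraries of days 2, 3 and 3.5 alone gave 159 higher genes. Deposited FPKM gave 29 and 236 with log2(FPKM + 1), 31 and 232 without a filter, and 26 and 329 with log2(FPKM + 0.1). The cause of these differences was not tested. RLE factors, library totals, the deposited voom values, thinning and the 5 compared libraries alone stayed within 1.5 times for both counts. The genes behind these counts were partly others. Of the 74 higher and 499 lower calls, the 5 libraries alone kept 51 and 340, and thinning 53 and 413. The voom values kept 55 and 451, library totals 59 and 475, and RLE factors 74 and 466. Leaving out 1 library gave 11 to 84 higher and 173 to 588 lower genes, and where a day 3 library was omitted, the remaining one was assumed to vary like the other groups. The pseudogene Rplp0-ps1 reversed with FPKM, to -0.2211 with log2(FPKM + 1), -0.2236 with log2(FPKM + 0.1) and -0.2211 without a filter. The replicate number as a block gave 34 higher and 232 lower genes. Deviations of same-numbered libraries from their group means had correlations of -0.307 and 0.146. With 2 day 3 libraries the deviations of one mirror those of the other. These correlations therefore cannot tell whether the numbers pair the libraries. Depth limits genes near 0 in the sorted libraries, whose folds are given as count ratios.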

Other observations

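Other called genes, singled out after their values were seen, are in none of the lists described above. Several encode basement membrane, clotting and vessel-related proteins. Nid1 and Nid2, the nidogens that link laminin to collagen IV, had 32.8, 43.9 and 39.6 CPM and 39.2, 39.9 and 51.0 CPM in sorted libraries, against 170 and 105 CPM and 151 and 107 CPM at day 3 (edgeR log2 fold changes -1.83 ± 0.22 and -1.57 ± 0.20). F3, the tissue factor that starts clotting, had 8.91, 9.92 and 8.38 CPM in sorted libraries and 75.2 and 44.1 CPM at day 3 (log2 fold change -2.72 ± 0.23). Habp2, a plasma serine protease, had 0 counts over the sorted libraries and 280 at day 3, at least 68.3-fold lower against a floor of 3 counts over the sorted group, while the exact 95% counting interval of the ratio starts at 55.1. Flt1, a receptor for vascular endothelial growth factor, had 1.97, 2.79 and 2.94 CPM in sorted libraries and 28.2 and 22.5 CPM at day 3 (log2 fold change -3.31 ± 0.24). Epas1 (HIF2 alpha), a hypoxia-inducible factor, had 1.61, 2.79 and 4.49 CPM in sorted libraries and 98.9 and 54.1 CPM at day 3 (log2 fold change -4.71 ± 0.35). In all 6 genes the groups did not overlap, and each call held in all 11 fits that left out a library.

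Higher genes outside the lists included chromatin and lipid genes with modest changes. Hmgb2, a chromatin protein of dividing cells, had 71.7, 66.3 and 66.0 CPM in sorted libraries and 34.6 and 46.0 CPM at day 3 (log2 fold change 0.76 ± 0.17, adjusted p = 0.0367 by edgeR). Atp8a1, a phospholipid flippase, had 129.7, 110.2 and 93.5 CPM in sorted libraries and 57.1 and 55.6 CPM at day 3 (log2 fold change 0.98 ± 0.19, adjusted p = 0.0161 by edgeR). Groups of both genes did not overlap. Hmgb2 was called in 5 and Atp8a1 in 7 of the 11 fits that left out a library, and both were lost without day 3 replicate 1 or sorted replicate 1 or 2 (adjusted p = 0.0639 to 0.353).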
